A study of Kluyveromyces marxianus and Saccharomyces cerevisiae with 12 samples.

Results

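PMA2, SSA3 and TKL2 are 3 genes of the yeast Saccharomyces cerevisiae that encode the minor form of a proton pump, an Hsp70 chaperone and a transketolase. They form 1 group because their transcripts were far higher at 20 h of a fermentation than at 6 h. They are 3 of the 6461 loci in the S. cerevisiae tables, and they were chosen by their measured levels at 20 h and 6 h. Their difference between these times is therefore described below without a test. The loci are EC1118_1P2_2718g (PMA2), EC1118_1B15_0375g (SSA3) and EC1118_1B15_2663g (TKL2).

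RNA was sequenced from 12 samples of 2 yeasts fermenting a sugar-rich medium, with 3 samples per group. The S. cerevisiae strain was EC1118, a commercial wine yeast, harvested at 6 h and at 20 h. Early and late refer to these hours and not to a measured stage of the fermentation. The Kluyveromyces marxianus strain was IWBT Y855, harvested at 6 h and at 36 h. All 4 groups shared a medium of 230 g/l sugars with 200 mg/l assimilable nitrogen and 10 mg/l phytosterols, held at 25 °C, so by the labels the groups of a yeast differed in time alone; there was no untreated or mutant group. Whether the replicates of a group were separate cultures is not stated, so a p-value weighs a difference only against the scatter among the samples at hand, part of which may be technical. Levels are FPKM, fragments scaled to gene length and to the number of mapped fragments in the library, which set genes of different length on 1 scale but are relative to the library, so an amount of transcript per cell was not measured. A sample had 3 to 13 tables, whose values were averaged. The S. cerevisiae samples held 5.50 to 21.6 M fragments, apart from replicate 3 at 6 h, where 1 of 3 tables gave a depth, of 1.51 M.

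The plasma membrane H+-ATPase pumps protons out of the cell and so sets the membrane potential and the pH inside; PMA1 encodes the essential major form and PMA2 a minor one. Cytosolic Hsp70 proteins of the SSA family hold and fold unfolded proteins; in laboratory strains SSA1 and SSA2 are made in growing cells, SSA4 after heat shock, and SSA3 as growth on glucose ends. Transketolase moves carbon units between sugar phosphates in the non-oxidative pentose phosphate pathway, with TKL1 as the major gene and TKL2 as the minor one.

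The tables give most loci no gene name. PMA2 (chromosome XVI, positions 453796 to 456639, 2844 nt) and TKL2 (chromosome II, 447267 to 449312, 2046 nt) each had a length that no other EC1118 locus had, and 5 of 8 flanking loci for PMA2 and 7 of 8 for TKL2 matched the lengths of the flanking genes in the laboratory strain S288C. SSA3 (chromosome II, 68986 to 70935, 1950 nt) shared its length with other EC1118 loci, 3 in all, and took its name from its place, with 6 of 8 flanking loci matched. Coordinates are those of the EC1118 tables, whose build is not given in the sources used here. Among 64 small nucleolar RNA loci that the tables do name, 39 were matched by unique length and 39 of these received their own name. Matching also by 4 or more flanking loci named 54, and 54 received their own name.

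The upstream sequences of the genes are shown because all 3 genes were far higher late and encode unrelated proteins. They run from 270 to 51 bases before the start codon of the S288C gene (RefSeq, assembly R64), read 5′ to 3′ on the gene's strand. Those of EC1118 were not analysed here and may differ. Capitals mark matches to the stress response element CCCCT, which the general stress factors Msn2 and Msn4 bind, or to the post-diauxic shift element TTAGGGAT, each searched on both strands.
PMA2: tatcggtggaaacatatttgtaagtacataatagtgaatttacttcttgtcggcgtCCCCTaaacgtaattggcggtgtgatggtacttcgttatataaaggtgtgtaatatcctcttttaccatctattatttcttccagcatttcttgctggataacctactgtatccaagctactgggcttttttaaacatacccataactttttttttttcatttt
SSA3: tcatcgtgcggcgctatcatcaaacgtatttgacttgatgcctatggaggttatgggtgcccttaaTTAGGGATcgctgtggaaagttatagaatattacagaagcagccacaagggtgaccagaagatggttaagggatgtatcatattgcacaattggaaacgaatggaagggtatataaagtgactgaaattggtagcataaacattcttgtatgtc
TKL2: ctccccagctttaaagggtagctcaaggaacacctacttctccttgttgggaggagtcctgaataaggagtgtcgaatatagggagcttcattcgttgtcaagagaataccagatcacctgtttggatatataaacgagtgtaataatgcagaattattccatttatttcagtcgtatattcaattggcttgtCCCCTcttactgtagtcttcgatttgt
The windows lie at chrXVI:482573-482792 on the plus strand for PMA2, chrII:86499-86718 on the minus strand for SSA3 and chrII:476488-476707 on the minus strand for TKL2, and no annotated gene overlaps them. The stress response element occurred once upstream of PMA2, starting 214 bases before the start codon, and once upstream of TKL2, starting 77 bases before it. Of 6001 such windows over all S288C genes, 17.0% held it. The SSA3 window held the post-diauxic shift element, searched as TTAGGGAT alone, once, starting 204 bases before the start codon. These letters occurred in 0.383% of the windows, 23 in number, and variants of them were not searched. The motifs were picked with these genes in view, so the share does not measure how unexpected the SSA3 match is. The heat shock element searched as GAANNTTC occurred in 9.28% of windows and in none of the 3 shown. Each match describes letters in S288C and shows no binding.

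PMA2 was barely detected early and well expressed late. Its level was 1.92, 2.38 and 2.41 FPKM in replicates 1 to 3 at 6 h and 322, 222 and 204 FPKM at 20 h. Every 20 h sample was far above every 6 h sample, and the groups did not overlap. The means were 2.24 ± 0.276 FPKM at 6 h and 249 ± 63.9 FPKM at 20 h (SD, n = 3 each), a ratio of 111 and a difference of 6.25 in mean log2(FPKM + 1). The 1 added to each value understates the change of so low a gene. The lowest 20 h sample was 84.6 times the highest 6 h sample. By mean level PMA2 stood 5548th of the 6461 loci at 6 h and 729th at 20 h. At 6 h it rested on few fragments: about 193 in replicate 1, 123 in replicate 2 and 11 in the table of replicate 3 with a known depth, against 4160 to 9762 per sample at 20 h. A table of replicate 2 at 6 h, with only 0.0819 M fragments, listed PMA2 at 0.

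SSA3 was low early and among the abundant transcripts late. Levels at 6 h were 11.0, 14.5 and 14.4 FPKM, and those at 20 h were 523, 475 and 1636 FPKM. The 6 h samples lay close together, whereas replicate 3 at 20 h was 3.28 times the mean of the other 20 h samples, and the times did not overlap. The means were 13.3 ± 1.97 and 878 ± 657 FPKM (SD, n = 3 each), a ratio of 66.0 and a log2 difference of 5.71. Without replicate 3 at 20 h the log2 difference was 5.13. The lowest 20 h sample was still 32.8 times the highest 6 h sample. SSA3 stood 4537th of all loci by mean level at 6 h and 182nd at 20 h.

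TKL2 followed the same course. Its level was 10.0, 17.6 and 17.3 FPKM at 6 h and 583, 450 and 846 FPKM at 20 h. Replicate 1 was the lowest sample at 6 h and replicate 3 the highest at 20 h, and the times did not overlap. The means were 14.97 ± 4.29 and 626 ± 202 FPKM (SD, n = 3 each), a ratio of 41.8 and a log2 difference of 5.29. The smallest ratio between a 20 h and a 6 h sample was 25.5. TKL2 stood 4361st of all loci at 6 h and 274th at 20 h.

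**Figure D1:**
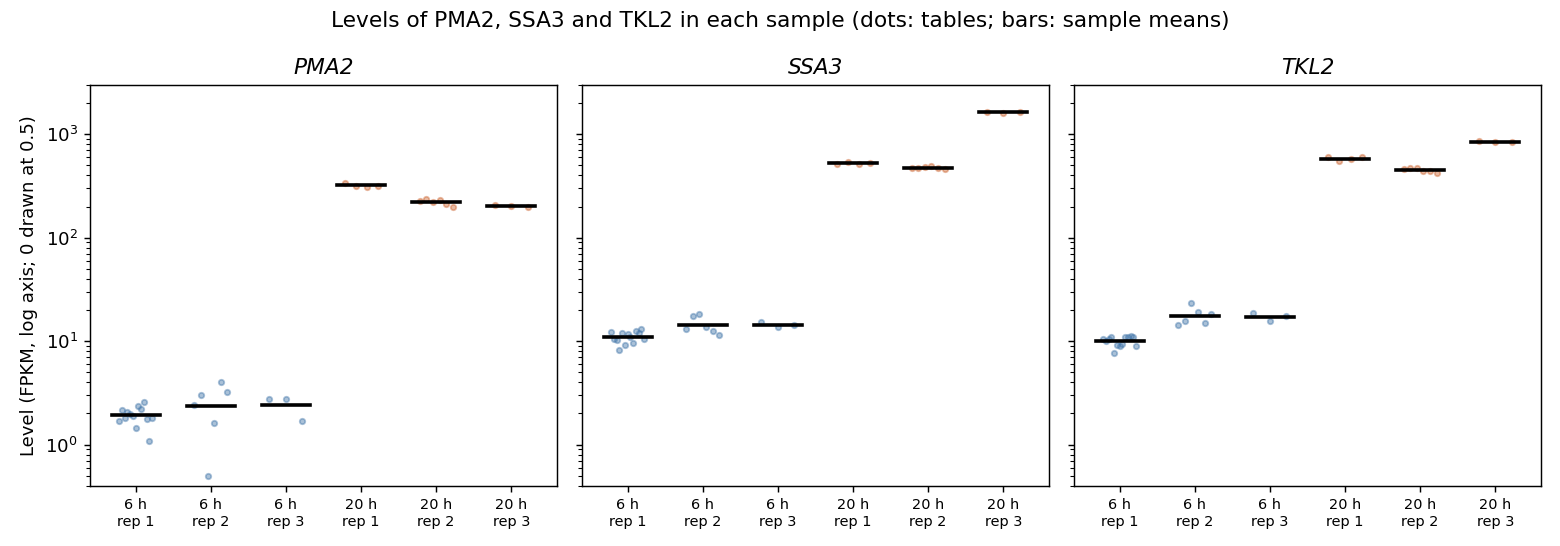
Level of PMA2, SSA3 and TKL2 (FPKM, log axis) in the 3 samples at 6 h (blue) and the 3 at 20 h (orange); dots are the tables of a sample and bars the sample means. All 20 h samples of a gene lie above all its 6 h samples, and SSA3 in replicate 3 at 20 h, at 1636 FPKM, stands above the other 20 h samples.

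Across all loci, 5712 had a mean of at least 1 FPKM and were fitted with limma. All 3 genes passed that filter, and each had a mean above 1 FPKM at 6 h as well as at 20 h. By log2 difference PMA2 ranked 6th, SSA3 10th and TKL2 12th of the 5712, as the way they were chosen implies. The median log2 difference of all tested loci was 0.30, so a typical locus read slightly higher at 20 h. Relative to that median the differences were 5.95 for PMA2, 5.41 for SSA3 and 4.99 for TKL2.

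PMA2 was the lowest of the 3 at both times. At 6 h PMA2 was below SSA3 and TKL2 in every sample, while the ranges of SSA3 (11.0 to 14.5 FPKM) and TKL2 (10.0 to 17.6 FPKM) overlapped. At 20 h PMA2 was again the lowest in every sample, and SSA3 and TKL2 again overlapped. Replicate 3 at 20 h was the highest sample for SSA3 and TKL2 and the lowest for PMA2. SSA3 there was above TKL2, whereas in replicate 1 it was below. As a ratio of highest to lowest, tables of a sample lay closer together at 20 h than at 6 h. The 3 tables of replicate 3 at 20 h gave 1609 to 1655 FPKM for SSA3, 842 to 854 FPKM for TKL2 and 198 to 209 FPKM for PMA2. The 6 tables of replicate 2 at 6 h gave 11.4 to 18.4 FPKM for SSA3, 14.3 to 23.3 FPKM for TKL2 and 0 to 4.03 FPKM for PMA2. The highest values of SSA3 and TKL2 and the 0 of PMA2 came from 1 shallow table. It held 0.0819 M fragments, where the others of that sample held 1.85 to 1.86 M.

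Reads of a close relative can be assigned to the wrong copy, so the overlap in sequence was measured on the S288C genes. PMA2 and PMA1 were 82.8% identical in aligned bases, with a longest shared run of 74 nt, and 1.36% of the 50-base stretches of PMA2 occurred in PMA1. SSA3 was 75.2% identical to SSA1, 75.1% to SSA2 and 77.6% to SSA4, and TKL2 was 69.4% identical to TKL1. No 50-base stretch of SSA3 or TKL2 occurred elsewhere in the genome. SSA2 was different: it was 96.8% identical to SSA1, and 58.15% of its 50-base stretches occurred elsewhere, so its level is uncertain. How such copies were counted is not stated. TEF1 and TEF2, which encode the same translation elongation factor, are 99.85% identical. Both were at 1872 FPKM in replicate 1 at 6 h and were listed at 0 in the other 5 samples. Whether samples differed in how such copies were counted was not tested.

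PMA2 made up a larger part of the pump transcripts late, although PMA1 stayed the main one. PMA1 was 1657, 2071 and 2754 FPKM at 6 h and 1572, 1353 and 960 FPKM at 20 h. All 20 h samples were below all 6 h samples, though replicate 1 at the 2 times differed little. The means were 2161 ± 554 and 1295 ± 310 FPKM (SD, n = 3 each), and PMA1 fell by 0.74 on the log2 scale (SE 0.26, limma adjusted p = 0.0434). That call was lost without replicate 2 or 3 of either time, with limma adjusted p from 0.0801 to 0.129. PMA2 as a share of PMA1 plus PMA2 was 0.116%, 0.115% and 0.0874% at 6 h and 17.0%, 14.1% and 17.5% at 20 h, a mean of 0.106 ± 0.0161% against 16.2 ± 1.85% (SD, n = 3 each). The summed level of both was 2163 ± 554 FPKM at 6 h and 1544 ± 366 FPKM at 20 h, and these overlapped.

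Other genes around the pump had smaller differences than PMA2, which was chosen for its difference. A list of 15 pump partners held PMA1 itself, regulators and ion transporters that balance its current. Of its 9 tested loci named by unique length, 3 were called higher and 2 lower, the latter being PMA1 and PMP2. With names also by flanking loci these were 4 and 2 of 11. Over all tested loci, 60.3% were called, 39.7% higher and 20.6% lower (limma, adjusted p below 0.05). AST2, a relative of the pump targeting factor AST1, rose by 1.58 (log2; 23.0 to 71.4 FPKM), the Na+/H+ antiporter gene NHA1 by 1.45 (20.2 to 58.3 FPKM) and AST1 by 1.28 (36.1 to 89.7 FPKM). PMP2, a small proteolipid that regulates the pump, fell by 0.99 (log2; 23318 to 12138 FPKM, limma adjusted p = 0.0145), a call lost without replicate 3 at 6 h (limma adjusted p = 0.0535). HSP30, which restrains the pump under stress, was 2733 ± 858 FPKM at 6 h and 2010 ± 156 FPKM at 20 h (SD, n = 3 each; limma adjusted p = 0.171). PMP1 was listed at 0 in every sample. PMP1 and PMP2 are only 123 and 132 nt long, and how fragments of such short loci were counted is not stated. Their levels are therefore uncertain, and the 0 does not show that PMP1 was silent.

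The second proton pump of the cell, in the vacuole membrane, had no member called higher. Of its 9 loci named by unique length 0 were called higher and 4 lower, and of 15 with flanking names 0 and 8, against 39.7% and 20.6% of all tested loci. At an unadjusted limma p below 0.05 the count higher was also 0. The membrane-sector subunits VMA9, VMA16 and VMA11 fell by 1.61, 1.20 and 1.17 (log2).

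SSA3 and its relatives changed places between the times. SSA2 was 894, 660 and 690 FPKM at 6 h and 20.8, 20.0 and 23.1 FPKM at 20 h. Every 20 h sample was far below every 6 h sample. SSA2 fell by 5.06 on the log2 scale (SE 0.16, limma adjusted p = 7.5e-06), with the limit that much of its sequence is shared with SSA1, for which no locus was matched. SSA4, the heat-inducible member, was 176, 119 and 155 FPKM at 6 h and 701, 557 and 776 FPKM at 20 h, without overlap. It rose by 2.17 (log2; SE 0.21, limma adjusted p = 0.000187).

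SSA3 was a minor part of the matched SSA transcripts at 6 h and a major part at 20 h. As a share of SSA3 plus SSA4 it was 5.89%, 10.9% and 8.52% at 6 h and 42.7%, 46.0% and 67.8% at 20 h. Only in replicate 3 at 20 h did SSA3 exceed SSA4. As a share of SSA3 plus SSA2 it was 1.80 ± 0.508% at 6 h and 96.9 ± 1.47% at 20 h (SD, n = 3 each). The summed level of SSA2, SSA3 and SSA4 was 1081, 794 and 859 FPKM at 6 h and 1244, 1052 and 2435 FPKM at 20 h, so that replicate 1 at 6 h was above replicate 2 at 20 h. SSA1, the fourth member, is not in these sums.

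**Figure D2:**
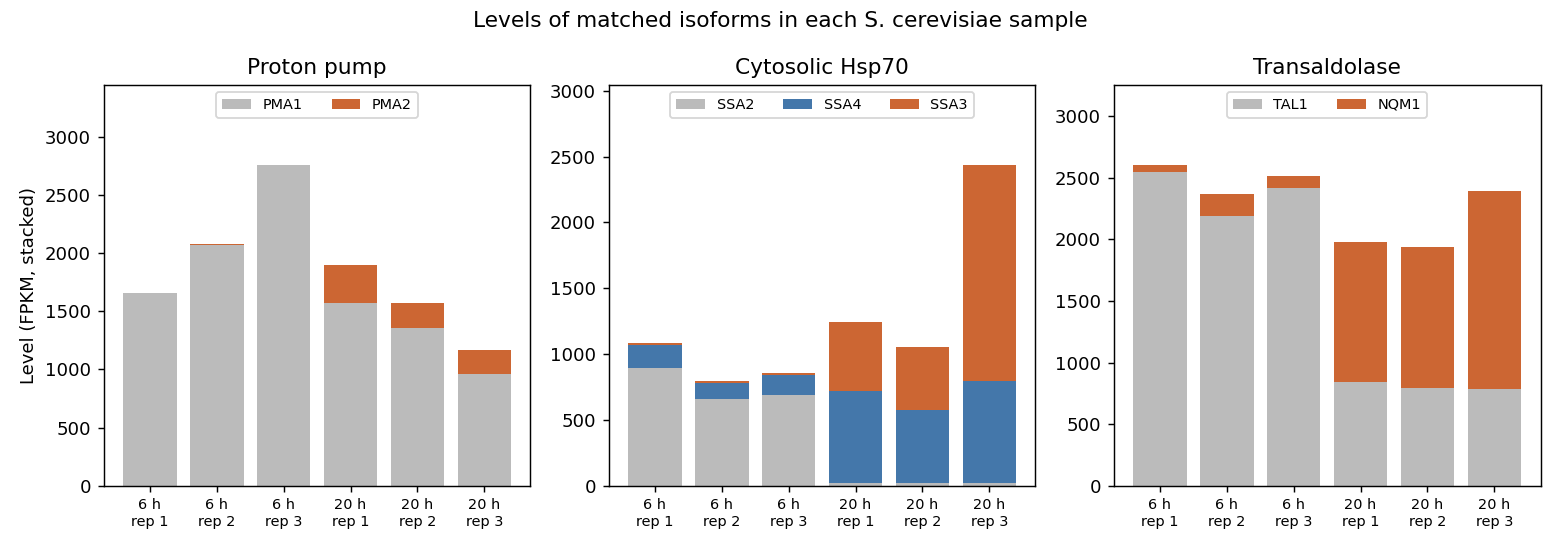
Stacked levels (FPKM) of the matched isoforms of the proton pump, the cytosolic Hsp70 and transaldolase in the 3 samples at 6 h and the 3 at 20 h. At 20 h PMA2 is 14.1% to 17.5% of the pump bars, SSA3 and SSA4 make up nearly all of the Hsp70 bars, and NQM1 makes up more than TAL1.

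Counted over the whole Hsp70 family without SSA3, the share of calls was near that of all loci. Of 6 family loci named by unique length, 2 were called higher and 1 lower, and of 11 with flanking names 4 and 1, where 39.7% of all tested loci were higher and 20.6% lower. The fall was that of SSA2, and SSA4 was among the rises. Their median log2 difference was -0.06 by unique length and -0.05 with flanking names, against 0.30 for all tested loci. The other rises were the mitochondrial Hsp70 genes ECM10 and SSQ1, by 1.47 and 1.08 (log2), and SSE2, a nucleotide exchange factor named here after its values were seen, by 0.82.

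Among chaperones and co-chaperones outside the family, 2 small heat shock genes had the largest rises. Of 16 named by unique length 8 were called higher and 5 lower, and of 26 with flanking names 10 and 9, beside 39.7% and 20.6% of all tested loci. With flanking names the share higher was thus near that of all loci. The small heat shock genes HSP12 and HSP26 were at 1409 ± 1026 and 840 ± 175 FPKM at 6 h and 27087 ± 9315 and 12431 ± 4240 FPKM at 20 h (SD, n = 3 each). HSP12 rose by 4.46 (log2; limma adjusted p = 0.000415) and HSP26 by 3.86 (log2; limma adjusted p = 7.1e-05). As for SSA3, replicate 3 was their highest 20 h sample, at 37744 FPKM for HSP12 and 17238 FPKM for HSP26. That was not particular to these genes. It held for many listed genes, such as SSA4 (776 FPKM), AST1 (120 FPKM) and NHA1 (78.6 FPKM), whereas PMA1 and PMA2 were lowest there. HSP31, a chaperone-like glyoxalase, rose by 1.74 (log2). BTN2 and HSP42, which sort misfolded proteins into deposits, fell by 5.26 and 1.49, and the Hsp70 nucleotide exchange factor FES1 fell by 1.30. HSP82, the inducible Hsp90, rose by 0.83 (log2; limma adjusted p = 0.0215). That call was lost without replicate 2 or 3 at 6 h and under both other scalings, with limma adjusted p from 0.0620 to 0.0795. HSP104, the disaggregase, was 766 ± 120 and 511 ± 139 FPKM (SD, n = 3 each; limma adjusted p = 0.0546, and 0.00959 without replicate 3 at 20 h).

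GND2 and NQM1, minor isoforms of the TKL2 pathway, rose, and a further minor isoform, SOL4, did not pass the test. No locus was matched to TKL1, GND1 or ZWF1, so the share of TKL2 in transketolase transcripts was not analysed here. GND2, the minor 6-phosphogluconate dehydrogenase, was 20.0, 40.5 and 35.0 FPKM at 6 h and 904, 760 and 1346 FPKM at 20 h. Its samples had the same order as those of TKL2 at both times. GND2 rose by 4.95 (log2; SE 0.32, limma adjusted p = 4.7e-05). NQM1, the minor transaldolase, was 59.6, 179 and 102 FPKM at 6 h and 1142, 1146 and 1607 FPKM at 20 h, again without overlap. NQM1 rose by 3.62 (log2; limma adjusted p = 0.000306), while the major transaldolase TAL1 fell by 1.56 (2382 ± 179 to 806 ± 29.3 FPKM, SD, n = 3 each; limma adjusted p = 0.000151). NQM1 as a share of both was 4.64 ± 2.69% at 6 h and 61.3 ± 5.15% at 20 h (SD, n = 3 each). The summed level of NQM1 and TAL1 was 2496 ± 119 and 2104 ± 250 FPKM.

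The 6-phosphogluconolactonase genes also shifted in share. SOL4 as a share of SOL3 plus SOL4 was 36.0 ± 2.86% at 6 h and 73.3 ± 7.81% at 20 h (SD, n = 3 each). SOL3 fell by 2.15 (log2; 648 to 145 FPKM), and SOL4 was 363 ± 32.4 and 419 ± 130 FPKM (SD, n = 3 each; limma adjusted p = 0.556). The paralogs SOL1 and SOL2 fell by 0.77 and rose by 0.58; the rise of SOL2 was not called under either other scaling. Over the pathway without TKL2, 2 of 6 loci named by unique length were called higher and 3 lower, and 3 and 4 of 10 with flanking names, against 39.7% and 20.6% of all tested loci.

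Listed starvation or stress isoforms of other gene pairs were called higher more often than lower. A list of 25 starvation or stress isoforms, which holds GND2, NQM1 and SSA4 and leaves out the 3 genes themselves, had 15 loci named by unique length, of which 10 were called higher and 0 lower, and 16 and 0 of 23 with flanking names. Of all tested loci 39.7% were called higher and 20.6% lower. At an unadjusted limma p below 0.05 the count lower was also 0, whereas both other scalings called 2 lower. The median log2 difference was 1.20 by either naming. The list was made with earlier results of these data known, and its GND2, NQM1 and SSA4 are among the rises given above. Its counts are therefore a description and no independent support. Their 25 partners, listed as major forms, had 1 of 11 called higher and 7 lower, and 5 and 11 of 22 with flanking names. Major is the name of the list and not always of the level. By mean share at 6 h, PGM2 was already 92.9% of its pair, HXK1 67.6%, COX5B 63.2% and HSP82 53.8%. NDE2, an external NADH dehydrogenase, rose by 3.74 (log2; 5.93 to 93.6 FPKM), and its partner NDE1 rose as well, by 1.41. Among the listed partners HXK2, the hexokinase of glucose-grown cells, fell by 2.97 (745 to 95.1 FPKM), whereas the pyruvate decarboxylase gene PDC1 rose by 1.51. The cytochrome c oxidase gene COX5A rose by 0.77, a call not kept under either other scaling. The differences of PMA2, SSA3 and TKL2 were above those of all members of these lists, as the way they were chosen implies, GND2 being the nearest.

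**Figure D3:**
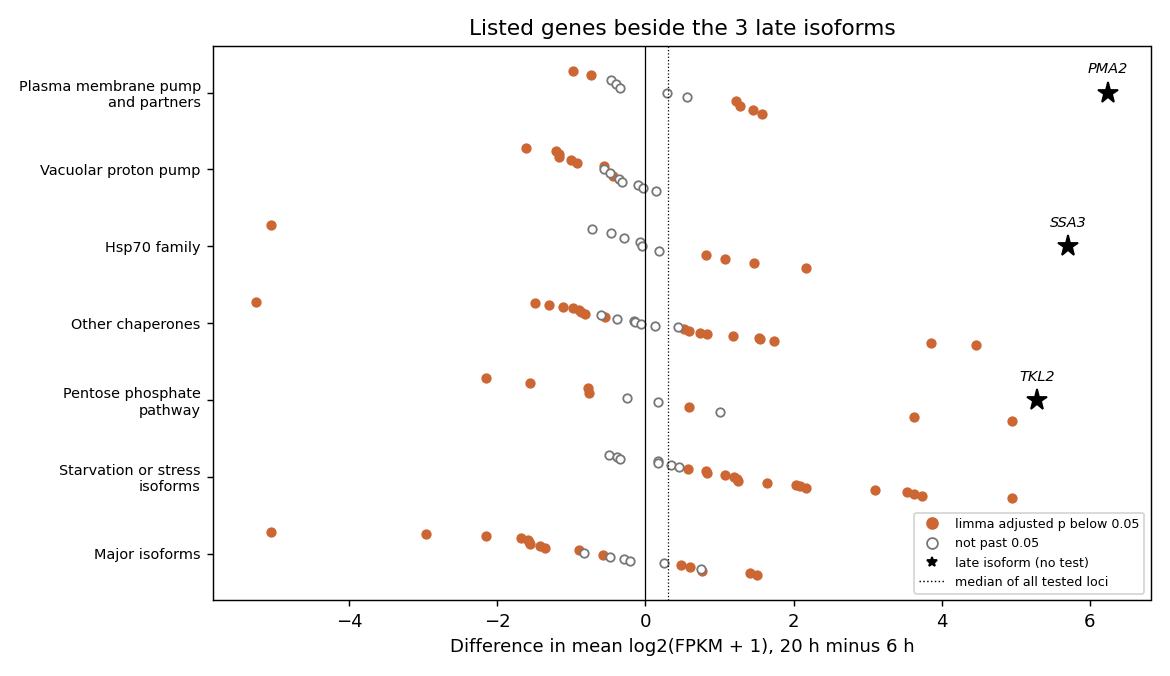
Difference in mean log2(FPKM + 1), 20 h minus 6 h, for each tested gene of the lists, named by unique length or by flanking loci; filled points passed limma at an adjusted p of 0.05, open points did not, stars are the 3 late isoforms and the dotted line is the median of all tested loci, 0.30. PMA2, SSA3 and TKL2, chosen for their difference, lie to the right of all listed genes, with GND2 (4.95) the nearest.

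Rescaling the samples changed the balance of these calls more than the 3 genes. With trimmed-mean scaling (TMM) the median over all loci moved from 0.30 to -0.02, and 1704 loci were called higher and 1754 lower in place of 2268 and 1176. Median centring gave 1726 and 1718. The share of higher calls among all calls was 65.9% as deposited, 49.3% with TMM and 50.1% with median centring. PMA2, SSA3 and TKL2 differed by 5.97, 5.39 and 4.97 (log2) with TMM.

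The loci most like each gene were sought by the smallest root mean square difference between profiles of log2(FPKM + 1), each centred on its mean over the 6 samples, and this is a description. Such distances largely reflect the size of the difference between 20 h and 6 h, on which the genes were chosen. Loci with a similar difference therefore come out close. PMA2 was closest to SPS100, a spore wall gene, which was 12.2, 15.3 and 17.7 FPKM at 6 h and 1615, 1275 and 1259 FPKM at 20 h, a distance of 0.15. HBT1 (0.34), the iron-siderophore mannoprotein gene FIT3 (0.35), YGR201C (0.49) and POT1 (0.56), the peroxisomal thiolase of fatty acid breakdown, followed. SPS100 shared with PMA2 its highest 20 h level in replicate 1 and its lowest in replicate 3.

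SSA3 was closest to TKL2, at a distance of 0.42. SPG1 (0.43), needed at high temperature in stationary phase, the proteinase A inhibitor gene PAI3 (0.51), HBT1 (0.51) and YGR201C (0.51) came next. SPG1 was 460, 587 and 1219 FPKM at 20 h, with replicate 3 the highest, as for SSA3 and for many of the listed genes. TKL2 was closest to PAI3 (0.16) and to GND2 (0.19), before POT1 (0.29), HBT1 (0.30) and YGR201C (0.34). POT1 had a mean of 1.04 FPKM at 6 h, so the 1 added to each value understates its change and affects its distances. Its ratio of 20 h to 6 h means was 74.6, against 41.8 for TKL2. HBT1 and YGR201C were thus among the 5 closest loci of all 3 genes. TKL2 was the 6th closest locus to PMA2 and SSA3 the 11th, at distances of 0.63 and 0.76.

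**Figure D4:**
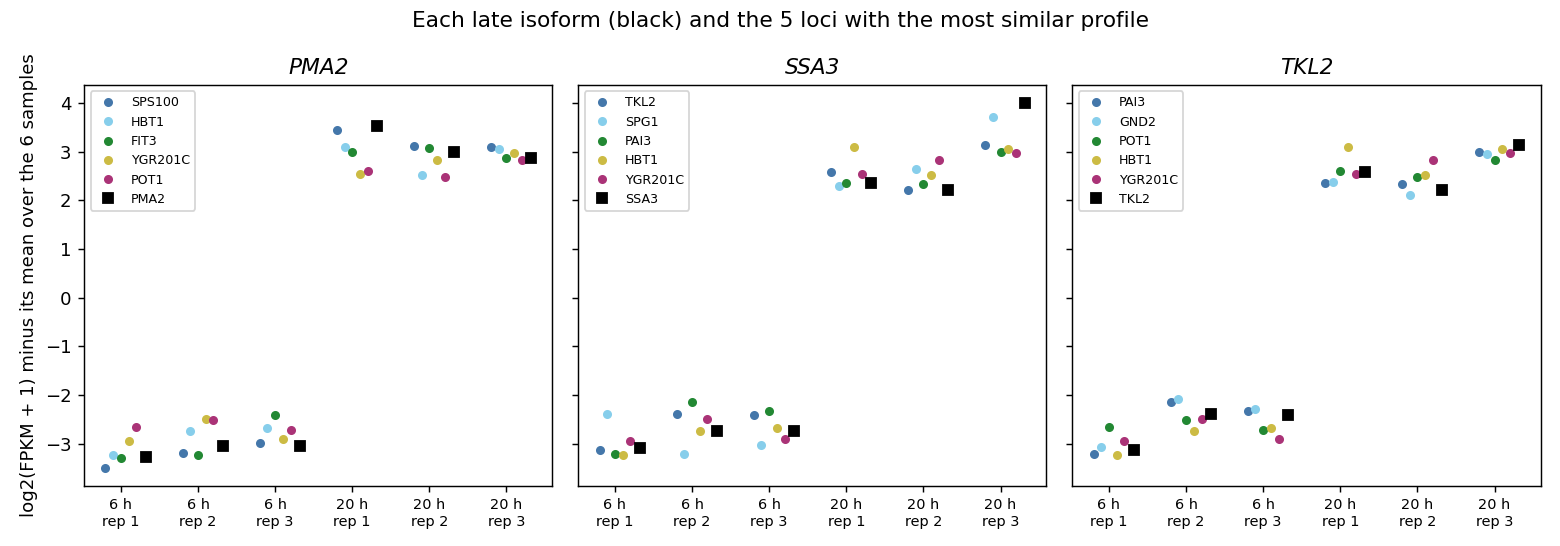
Values of log2(FPKM + 1) minus their mean over the 6 samples for PMA2, SSA3 and TKL2 (black squares) and the 5 loci with the nearest profile (coloured points), by sample. SSA3 lies above its nearest loci in replicate 3 at 20 h, and PAI3 and GND2 lie near TKL2 in all samples, at distances of 0.16 and 0.19.

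The genes beside the 3 on the chromosome, named here for their place, had smaller differences, some in the other direction. That they were smaller is implied by the way the 3 were chosen. EGD1, a subunit of the complex that binds nascent proteins, lies next to PMA2 and fell by 2.09 (log2; 1194 to 280 FPKM, limma adjusted p = 6.6e-05). LYS2, a lysine synthesis gene next to TKL2, fell by 1.88 (85.5 to 22.2 FPKM), and the DNA repair gene RAD16 beyond it rose by 2.38 (30.1 to 169 FPKM). AAR2, a splicing factor gene next to SSA3, rose by 1.17 (5.61 to 13.7 FPKM), and the autophagy gene ATG8, the second locus on the other side, rose by 1.20 (327 to 752 FPKM).

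K. marxianus samples played no part in choosing the genes. In a table of gene symbols for the K. marxianus strain DMKU3-1042, which covered 5095 of the 5319 loci, PMA1, SSA2, SSA3 and TKL1 were each found once, and no locus carried the symbol PMA2, SSA1, SSA4 or TKL2. Over the 4929 tested loci, limma called 40.7% in all, 21.3% higher and 19.5% lower at 36 h. The symbols come from that table and do not show which S. cerevisiae gene a locus corresponds to.

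The K. marxianus locus named SSA3 (KLMA_80367) was 235, 379 and 347 FPKM at 6 h and 321, 337 and 696 FPKM at 36 h. The times overlapped, and it was already abundant at 6 h. The means were 320 ± 75.7 and 451 ± 212 FPKM (SD, n = 3 each), a log2 difference of 0.43 (SE 0.36, limma adjusted p = 0.360). SSA2 (KLMA_20459) was 683, 481 and 382 FPKM at 6 h and 77.5, 48.5 and 68.5 FPKM at 36 h, without overlap. It fell by 2.96 (log2; SE 0.31, limma adjusted p = 9.8e-05).

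PMA1 (KLMA_10457) was 1500, 1534 and 987 FPKM at 6 h and 731, 273 and 972 FPKM at 36 h. All 36 h samples were below the 6 h samples, although the highest of them nearly reached the lowest at 6 h. The log2 difference was -1.18 (SE 0.45, limma adjusted p = 0.0566, and 0.0224 without replicate 3 at 36 h). TKL1 (KLMA_80302) was 318 ± 52.8 FPKM at 6 h and 276 ± 45.5 FPKM at 36 h (SD, n = 3 each), with overlap and a log2 difference of -0.20 (SE 0.27, limma adjusted p = 0.577). The late harvests were at different times, and the yeasts were fitted apart, so a difference between them was not tested.

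**Figure D5:**
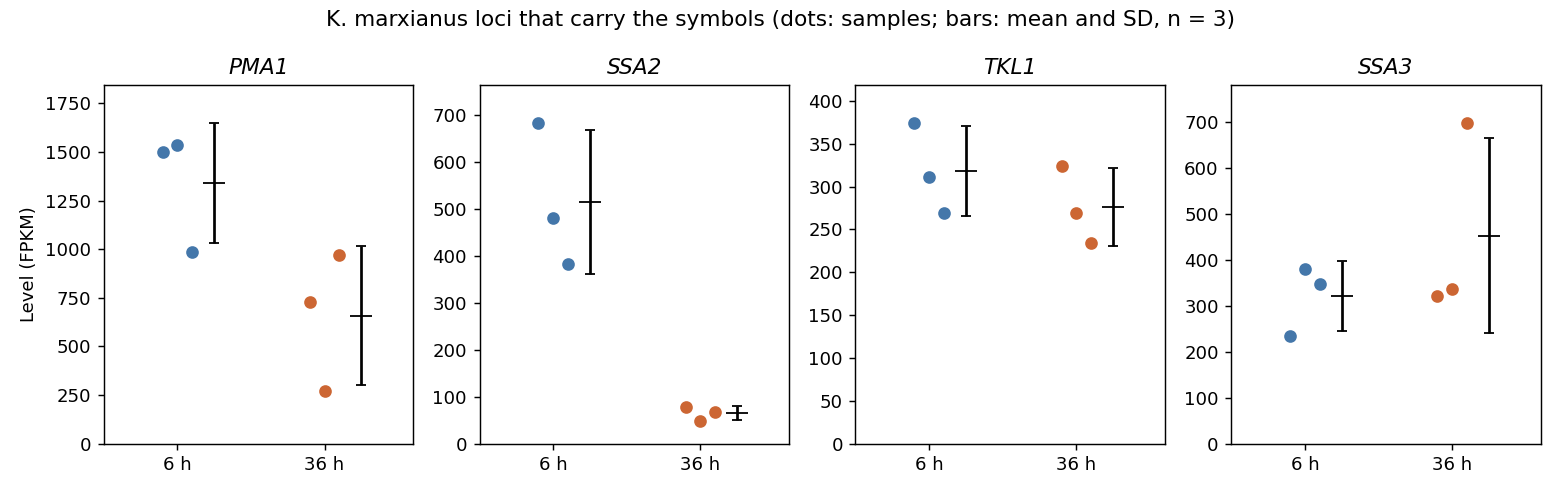
Level (FPKM) of the K. marxianus loci that carry the symbols PMA1, SSA2, TKL1 and SSA3 in the samples at 6 h (blue) and 36 h (orange); black marks are the mean and SD (n = 3). SSA2 falls from 515 to 64.9 FPKM without overlap, and the samples of TKL1 and SSA3 overlap between times.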

How the data were processed

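Total RNA was sequenced, per the labels' protocols, from TruSeq V2 libraries. Values are FPKM as the authors deposited them, in 67 Cufflinks-style tables, 35 of them for S. cerevisiae. Per the submitters' processing notes, Cufflinks 2.2.1.2, Cuffdiff 2.2.1.5 and the aligner TopHat2 2.0.8 were used, beside FastQC 0.10.1 and Trim Galore 0.4.3.1; what each did, the build and the annotation are not stated. How the tables of a sample differ is not stated, so they were treated as parts of 1 sample and averaged, leaving out the 126 S. cerevisiae values that the files mark as low in data or failed. Fragment numbers were recovered from the deposited FPKM and its upper bound; in the tables with a depth, 75.3% to 89.2% of the values below 5.5 fragments were whole within 0.02.

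Loci with a mean of at least 1 FPKM were fitted per yeast with limma 3.58.1 (R 4.3.3) on log2(FPKM + 1), trend on mean level included, with Benjamini-Hochberg adjustment at 0.05, tested on simulated data. No count test was run on FPKM.

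Of 6268 EC1118 loci, 2953 were matched to S288C genes by a span of unique length with at least 2 of up to 8 flanking spans matched. A rule added after seeing the data, with a shared length and 4 flanking spans, raised this to 4791 with 0 conflicts. Of 125 listed symbols, 65 and 108 were matched. Genes are named by either rule. The 3 genes and the lists were chosen with earlier results of these data known. Named beside them are their partners, fixed pathway genes, up to 3 called rises and 3 falls per list that reach 10 FPKM and do not overlap between times, and the 5 loci most alike; neighbours, TEF1, TEF2 and PMP1 were named apart from that rule. The alternatives tried were pseudocounts of 0.1 and 5, other filters, TMM scaling, median centring, the median over tables, no trend, a replicate block, leaving out each sample and, added later, a depth-weighted mean over tables and the wider naming. Sequences and motif searches used Biopython.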

Additional observations from a re-analysis of the deposited data

How the results depend on the processing

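The log2 difference of PMA2 was 6.715 with a pseudocount of 0.1, 5.107 with 5, 5.97 with TMM scaling and 5.94 with median centring. Leaving out 1 sample gave 6.05 to 6.38 for PMA2, 5.13 to 6.03 for SSA3 and 5.04 to 5.50 for TKL2. Under TMM scaling and under median centring alike, list counts became 3 lower for the Hsp70 family, 5 higher for other chaperones, 5 lower for the pump partners, 1 higher for the pentose phosphate pathway, 2 lower for the stress isoforms and 0 higher for the major isoforms. The wider naming, added after seeing the data, gave 4 higher for Hsp70, 9 lower for chaperones, 8 lower for the vacuolar pump, 16 higher for the stress isoforms, and 5 higher and 11 lower for the major isoforms. Leaving out 1 sample gave 1 to 2 lower for Hsp70 (2 without replicate 3 at 20 h or replicate 1 at 6 h), 5 to 8 higher for chaperones (5 without replicate 2 at 6 h), 0 to 2 lower for the pump partners (0 without replicate 3 at 6 h) and 0 higher for the major isoforms throughout (range 0 to 0). Samples with the same number did not deviate together: the correlations of their deviations were -0.12, 0.17 and 0.03 in S. cerevisiae and 0.04, -0.07 and -0.23 in K. marxianus, and 2 and 1 of 6 samples correlated best with their own number. With the replicate block, 3239 S. cerevisiae and 1866 K. marxianus loci were called, against 3444 and 2008 without it. The pump partners then had 1 lower and the major isoforms 0 higher, PMA1 was not called (limma adjusted p = 0.0848), HSP104 was (0.0248), and so was K. marxianus PMA1 (0.0280). TMM scaling and median centring also called K. marxianus PMA1 (limma adjusted p = 0.0333 and 0.0294), HSP30 (0.0186 and 0.0237) and HSP104 (0.00469 and 0.00531). Leaving out 1 sample gave 2935 to 3433 and 1426 to 1914 calls. Over the 48 further values, 744 alternatives kept the side of the threshold, 14 lost a call and 10 gained one, and none changed the sign of a called value; the causes were not tested. Depth limits PMA2 at 6 h the most, with 11 fragments in the table of replicate 3 with a known depth.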
